A study of Mus musculus with 32 samples.

Results

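Atf4 and 9 genes of the integrated stress response, Ddit3, Trib3, Chac1, Asns, Psat1, Phgdh, Mthfd2, Fgf21 and Gdf15, were followed in mouse gastrocnemius (GAS) muscle after the sciatic nerve was cut. They were taken by gene symbol and are 10 of the 33397 genes in the expression table. Atf4 RNA was 2.73 times its day 0 mean at day 1 post denervation and below every day 0 sample from day 5 to day 28, and the other genes did not follow it as a group. Trib3 rose at day 1 only, Chac1 rose at day 1 and then fell, Asns passed as higher at days 1, 3 and 28 and Psat1 at days 1, 3, 14 and 28, Mthfd2 rose to 7.57 times its day 0 mean by day 28, and Fgf21 and Gdf15 went from almost no fragments to low levels. Ddit3 and Phgdh passed the test at no time point on the values as deposited.

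The muscles came from C57BL/6 mice, which were young adult males by the study's methods, and each of 8 groups held 4 samples, taken 0, 1, 3, 5, 7, 14, 21 or 28 days after the operation. The sciatic nerve carries the motor supply of the calf, and it was interrupted on the left side. The labels give sciatic nerve transection as the treatment of all 8 groups, day 0 included, and no operated but innervated muscle from the later days was analysed here, so denervation and the time since surgery cannot be told apart. The columns of the 4 day 0 samples are headed only with C and a number and were taken as day 0 because every other column names its day. Nothing ties a sample to a numbered mouse, so a p-value measures the spread between samples of a group. In the limma fit used below, that spread was estimated for each gene over all 8 groups together.

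Values are in FPKM, fragment counts scaled to the exon length and to the depth of the library, so that levels of different genes can be compared. Between 14199898 and 17561590 fragments per sample were recovered from them, with a median of 16663162. The sum over 6 muscle fibre markers, all present in the table, was 39010 to 42600 FPKM at day 0 and 20570 to 24390 at day 3, and the sum over 6 genes of the denervation response, Chrng and Myog among them, went from at most 13.3 FPKM at day 0 to at least 399 from day 3 on. The labels' extraction text speaks of retinas, but 5 retina markers found in the table summed to at most 1.75 FPKM in any sample. Mitochondrial genes took 14.5% to 18.2% of the fragments at day 0 and 6.7% to 12% from day 5 on, and the median gene with a mean of at least 1 FPKM was 0.12 to 0.31 higher than at day 0 on the log2 scale at every later time point. A gene was called higher or lower, or said to pass, at a Benjamini-Hochberg adjusted p under 0.05 over all genes tested (limma), provided that it differed 1.5-fold or more on the log2(FPKM + 1) scale. Changes of the 10 genes are also given after median-ratio scaling, which sets that shift close to 0, where it moves a call. Replicate 1 of day 3 stood apart from its group, with the lowest mean Pearson's r to its own time point (0.9685, across genes) and a leukocyte marker sum of 249.9 FPKM against 407 to 826 in the other 3 samples.

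The integrated stress response begins with kinases that sense amino acid shortage, unfolded protein in the endoplasmic reticulum, haem shortage or double-stranded RNA and phosphorylate the initiation factor eIF2alpha. General translation then falls, while the Atf4 message, whose leader holds upstream reading frames, is translated more. Atf4 protein pairs with C/EBP and other leucine zipper proteins on composite response elements and switches on genes for amino acid synthesis and uptake, for tRNA charging and for feedback. Because control of Atf4 acts largely on translation, its RNA is not a measure of its protein, and no protein was measured in this table. In skeletal muscle the pathway is known for the secreted hormones Fgf21 and Gdf15, which stressed fibres release.

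The core letters of the C/EBP-ATF response element, TGATGNAA and its reverse complement TTNCATCA, were searched on both strands from 250 bases before to 50 bases after the RefSeq start of each gene (GRCm38.p6). All 10 genes had a RefSeq promoter entry. The letters were found in 4 of the 10 genes and in 1304 of the 32851 promoter entries of all genes (3.97%). The 4 windows are shown because these genes are the classical targets with a match, and the capitals mark the matched letters on the strand of the gene, 5′ to 3′.
Chac1: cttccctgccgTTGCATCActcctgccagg
Trib3: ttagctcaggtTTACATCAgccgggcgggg
Asns: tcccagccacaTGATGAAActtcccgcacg
Fgf21: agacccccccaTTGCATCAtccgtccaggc
The Chac1 window lies at chr2:119351038-119351067 on the plus strand, with its match 193 to 186 bases before the start. The Trib3 window lies at chr2:152344028-152344057 on the minus strand, where the match is 15 to 22 bases after the RefSeq start but still outside the gene as GENCODE bounds it. The Asns window lies at chr6:7693214-7693243 on the minus strand, 23 to 16 bases before the RefSeq start and inside the bounds that GENCODE gives the gene, and the Fgf21 window lies at chr7:45615611-45615640 on the minus strand, 139 to 132 bases before the start. A shorter window of 150 bases before the start kept the matches of Asns and Fgf21, against 2.23% of all entries. The endoplasmic reticulum stress element, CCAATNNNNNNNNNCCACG, was in none of the 10 windows and in 0.119% of all entries. A match describes letters only. The 4 genes that hold it all passed as higher at day 1, as deposited and after median-ratio scaling, as did Atf4 and Mthfd2, which lack it. After day 1 the 4 had unlike time courses, as the values below show.

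Atf4 (chr15:80255184-80257541, plus strand, GRCm38) encodes the transcription factor at the centre of the pathway. Its 4 day 0 samples held 75.6, 70.8, 74.2 and 69.8 FPKM (72.6 ± 2.77, mean ± SD, n = 4). At day 1 they held 188, 195, 196 and 213 FPKM (198 ± 10.3), all above every day 0 sample. The change was 1.44 (SE 0.09) on the log2(FPKM + 1) scale, with an adjusted p of 3.54e-13 by limma.

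At day 3 the Atf4 values were 180, 135, 121 and 124 FPKM, the highest in replicate 1, and all still above day 0. The change from day 0 was 0.92 on the log2 scale (limma, adjusted p = 5.5e-10), and 0.80 without replicate 1. From day 1 to day 3 the level was 0.51 lower on the log2 scale, under the 1.5-fold limit, and the fall passed it without replicate 1 of day 3 (0.64 lower). The drop came between day 3 and day 5, when the log2 level fell by 1.20 (limma, adjusted p = 5.57e-11).

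From day 5 on Atf4 lay below day 0. The 4 samples held 58.2, 60.6, 59.7 and 60.4 FPKM at day 5, and 44.8, 52.1, 41.9 and 47.9 FPKM at day 7, where the group mean was lowest (46.7 ± 4.33). At day 14 they held 46.2, 48.9, 49.2 and 54.0 FPKM, at day 21 47.7, 51.5, 51.9 and 55.3 FPKM, and at day 28 62.1, 56.8, 51.2 and 60.7 FPKM. None of these 20 samples reached the lowest day 0 value, and each of the 5 groups gave the smallest p that an exact two-sided permutation test of 4 against 4 allows (0.0286). The fall passed the 1.5-fold limit as deposited at day 7 only, by 0.63 on the log2 scale (limma, adjusted p = 6.19e-07), and not at day 7 without replicate 3 of that day (-0.58) or after rescaling to TPM, which gives every sample the same sum (-0.44). After median-ratio scaling it passed at all 5 later time points, with changes of -0.66, -1.01, -0.94, -0.79 and -0.71 from day 5 to day 28. In the order of Atf4 levels, day 1, day 3, day 0 and the later days did not overlap, while the ranges of neighbours among days 5, 28, 21, 14 and 7 did.

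**Figure D1:**
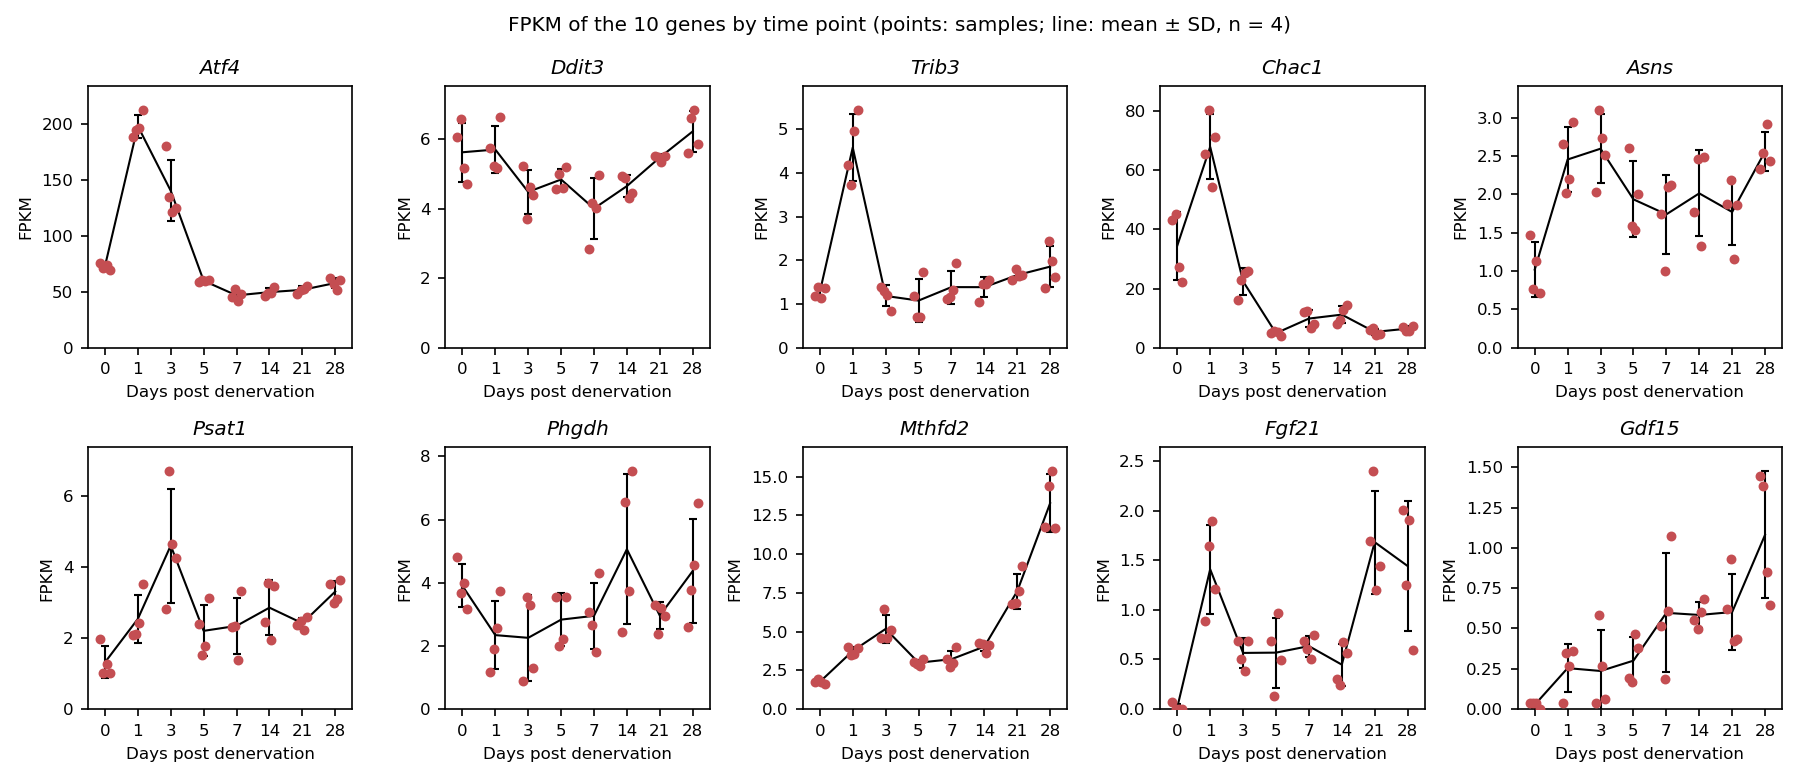
FPKM of the 10 genes (y axis, linear, from 0) at each time point (x axis, days post denervation, evenly spaced and not to scale); points are the 4 samples of a group and the line joins group means with their SD. Atf4, Trib3 and Chac1 have their highest group at day 1 and Mthfd2 has its highest at day 28 (13.3 FPKM against 1.76 at day 0), while the Ddit3 groups overlap day 0 throughout.

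Ddit3 (chr10:127290774-127296288, plus strand) encodes CHOP, a leucine zipper factor that Atf4 induces when stress lasts. Its day 0 samples held 6.06, 6.57, 5.16 and 4.71 FPKM, and its day 1 samples 5.76, 5.24, 5.18 and 6.65 FPKM. At day 7, where its mean was lowest, they held 2.85, 4.18, 4.03 and 4.96 FPKM, and at day 28, where it was highest, 5.60, 6.60, 6.85 and 5.86 FPKM. Every group overlapped day 0. The change at day 1 was 0.02 (SE 0.10) on the log2 scale, and the largest, at day 7, was -0.41 (limma, adjusted p = 0.00157), under the 1.5-fold limit. After median-ratio scaling the day 7 value was -0.73 and passed. Ddit3 shares 68 exon bases with Mars on the opposite strand and 13 with Gm4189, and counting by strand is not given in the sources used here, so its values are uncertain to that extent.

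Trib3 (chr2:152337422-152344032, minus strand) encodes a pseudokinase that Atf4 and CHOP induce and that restrains both the pathway and Akt. The day 0 samples held 1.19, 1.39, 1.14 and 1.36 FPKM, and the day 1 samples 4.18, 3.73, 4.97 and 5.44 FPKM, which is 3.60 times the day 0 mean with no overlap. The change was 1.29 (SE 0.14) on the log2 scale (limma, adjusted p = 1.52e-08). By day 3 it was back at 1.38, 1.29, 1.21 and 0.84 FPKM, having fallen by 1.35 on the log2 scale from day 1 (limma, adjusted p = 4.72e-09). Later samples ranged from 0.69 FPKM at day 5 to 2.44 FPKM at day 28, and no later change from day 0 passed the test under any alternative. At day 21 the 4 samples, 1.54, 1.80, 1.63 and 1.67 FPKM, lay above day 0 without overlap, by 0.23 on the log2 scale.

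Chac1 (chr2:119351229-119354381, plus strand) encodes a cytosolic enzyme that breaks down glutathione. Its day 0 samples were spread, at 43.3, 45.3, 27.2 and 22.3 FPKM (34.5 ± 11.5). The day 1 samples, 65.6, 80.5, 54.3 and 71.4 FPKM, all lay above them, and the log2 change was 1.00 (SE 0.21, limma, adjusted p = 0.000404). At day 3 the values were 16.0, 22.8, 25.1 and 25.8 FPKM and overlapped day 0, with a log2 change of -0.56 that did not pass as deposited and passed after median-ratio scaling (-0.79) and without replicate 3 or 4 of either group (-0.62 to -0.74).

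Chac1 then fell further than any of the other 9 genes. At day 5 the samples held 5.05, 5.50, 5.19 and 3.75 FPKM, so the day 0 mean was 7.08 times the day 5 mean, and the log2 change was -2.55 (SE 0.21, limma, adjusted p = 4.74e-11). The level was 11.9, 12.6, 6.69 and 8.14 FPKM at day 7 and 8.14, 9.29, 12.8 and 14.4 FPKM at day 14. At day 21 it was 5.86, 6.47, 4.39 and 4.49 FPKM, and at day 28 it was 7.13, 5.67, 5.73 and 7.14 FPKM. Every sample from day 5 on lay below every day 0 sample, and the changes of -1.69, -1.52, -2.45 and -2.21 at days 7, 14, 21 and 28 passed under both scalings.

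The small rebound of Chac1 was less firm. From day 5 to day 7 it rose by 0.85 on the log2 scale (limma, adjusted p = 0.0268), and from day 14 to day 21 it fell by 0.93 (limma, adjusted p = 0.018). The first step did not pass without replicate 1, 3 or 4 of day 5 or replicate 1 or 2 of day 7 (0.73 to 0.88, adjusted p 0.0548 to 0.105 by limma). The second did not pass without replicate 3 or 4 of either day (-0.87 to -0.81, adjusted p 0.0626 to 0.0759 by limma).

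Asns (chr6:7675169-7693254, minus strand) encodes asparagine synthetase, which makes asparagine from aspartate and glutamine. The day 0 samples held 1.47, 0.76, 1.13 and 0.71 FPKM. They were 2.65, 2.02, 2.20 and 2.95 FPKM at day 1 and 2.03, 3.10, 2.74 and 2.51 FPKM at day 3, and 2.33, 2.55, 2.92 and 2.44 FPKM at day 28. These 3 groups did not overlap day 0, nor did that of day 5 (lowest sample 1.53 FPKM). The rise passed at days 1, 3 and 28, by 0.78, 0.84 and 0.83 on the log2 scale (limma, adjusted p = 0.000232, 5.35e-05 and 6.13e-05). It passed in all 3 under median-ratio scaling too, and at day 3 without replicate 1 of that day (0.92). Between them, from day 5 to day 21, the samples ranged from 1.00 to 2.61 FPKM and the changes of 0.44 to 0.57 stayed under the 1.5-fold limit. At days 5 and 14 that limit was passed without replicate 1 of day 0 (0.65 and 0.68), replicate 2 or 3 of day 5 (0.60 and 0.61), or replicate 3 of day 0 or replicate 1 or 3 of day 14 (0.61 to 0.69). With a pseudocount of 0.1, after rescaling to TPM and with voom, Asns passed at days 5, 7, 14 and 21 too (0.72 to 0.99). As deposited no step between successive time points passed for Asns, the change being -0.30 from day 3 to day 5 and 0.37 from day 21 to day 28 (limma, adjusted p = 0.187 and 0.445).

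Phgdh and Psat1 catalyse successive steps of serine synthesis from a glycolytic intermediate, and Mthfd2 is the mitochondrial enzyme that oxidises the carbon unit carried from serine on folate. The 3 genes had different courses. Psat1 (chr19:15904678-15947337, minus strand) held 1.97, 1.01, 1.26 and 1.02 FPKM at day 0 and 2.1, 2.12, 2.42 and 3.52 FPKM at day 1. It was highest at day 3, with 2.81, 6.70, 4.66 and 4.26 FPKM, and held 3.51, 2.99, 3.11 and 3.63 FPKM at day 28. None of these 3 groups overlapped day 0. The log2 changes were 0.61, 1.25 and 0.91 (limma, adjusted p = 0.0145, 3.25e-06 and 0.000227), and 1.42 at day 3 without replicate 1.

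The rise of Psat1 at day 1 was the least firm of these. It passed neither after median-ratio scaling (0.52) nor without replicate 2 or 4 of day 0 (0.55 and 0.56) or replicate 4 of day 1 (0.49). At day 14 the 4 samples held 2.45, 3.55, 1.96 and 3.48 FPKM, overlapping day 0, and the change of 0.73 passed as deposited but not after median-ratio scaling (0.48). The further rise from day 1 to day 3, 0.64 on the log2 scale (limma, adjusted p = 0.011), did not pass without replicate 1 or 2 of day 1 or replicate 2 of day 3 (0.47 to 0.58). At days 5, 7 and 21 the change of 0.46 to 0.58 passed without replicate 1 of day 0 (0.59, 0.64 and 0.71), and also without replicate 3 of day 7 (0.67) and without replicate 1 or 3 of day 21 (0.59 and 0.61). Psat1 passed at these 3 days with a pseudocount of 0.1 (0.70, 0.78 and 0.88) and after rescaling to TPM (0.75, 0.83 and 0.87), and with voom at days 7 and 21 (0.81 and 0.93).

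Psat1 varied between samples of a day together with markers of other cells. At day 3 the leukocyte marker sum was 249.9, 826, 764 and 407 FPKM in replicates 1 to 4, the same order from lowest to highest as Psat1. The 7 leukocyte markers, none at 0 in any sample, summed to 114 to 165 FPKM at day 0 and to 306 to 996 FPKM at day 7. Lyz2 made up most of that sum, with a mean of 118.5 FPKM at day 0 and 500.3 FPKM at day 7. Over the 32 samples Pearson's r between Psat1 and that sum was 0.66 and Spearman's rho 0.56, the r was 0.55 without the 2 farthest samples, and it was 0.75 for deviations from the time point means (permutation test, p adjusted over 90 relations 0.0009 within time points and 0.00165 pooled, 0.0107 for rho). The deviations of Psat1 also went with the fibroblast markers (r = 0.79) and the cycling markers (r = 0.77). They went with the Schwann cell (0.647), endothelial (0.602) and adipocyte (0.595) sums too (permutation test, p adjusted over 90 relations 0.0101, 0.0261 and 0.0203). Against the muscle fibre sum r was -0.67 over the 32 samples and -0.49 within time points (permutation test, adjusted p 0.00135 and 0.109). In whole muscle a change in the cells present and a change in RNA per cell cannot be told apart, and the part of these cells in the Psat1 values was not tested.

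Phgdh (chr3:98313170-98339990, minus strand) held 4.80, 3.67, 3.98 and 3.17 FPKM at day 0. It held 1.16, 1.91, 2.57 and 3.73 FPKM at day 1 and 0.89, 3.56, 3.29 and 1.29 FPKM at day 3, the widest relative spread among its groups, and overlapped day 0 both times. At day 14 it held 2.43, 6.56, 3.73 and 7.53 FPKM and at day 28 2.59, 3.78, 4.57 and 6.54 FPKM. Every one of the 7 later groups overlapped day 0, and no change passed as deposited, the largest being -0.68 (SE 0.29) at day 3 (limma, adjusted p = 0.0604). After median-ratio scaling the fall passed at days 1, 3 and 5 (-0.77, -0.90 and -0.68), as it did after quantile normalization. The day 3 fall passed also with a filter at 1 FPKM (-0.68), a pseudocount of 0.1 (-0.96) and voom (-0.99; limma, adjusted p = 0.0424, 0.0445 and 0.0493). The day 3 value was -0.46 without replicate 1 of that day and passed without replicate 2 or 3 (-0.88 and -0.85). How fragments shared with the pseudogene Phgdh-ps1 were counted is not given in the sources used here.

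Phgdh ran most closely, of 9 marker lists, with the adipocyte markers Adipoq, Plin1 and Lep, all 3 of which were above 0 in every sample. Their summed level was 8.22, 14.5, 35.5 and 48.8 FPKM in replicates 1 to 4 of day 1, and 19.0, 66.1, 27.4 and 76.2 FPKM in those of day 14, the same order as Phgdh in both groups. The 4 samples stood in the same order on both measures in 5 of the 8 time points. Over the 32 samples r was 0.89 and rho 0.82, r was 0.84 without the 2 farthest samples, and r was 0.90 within time points. The pooled and within-day r and the rho each had the smallest p that 100000 permutations give (1e-05, which adjusted over 90 relations is 0.0009 for r and 0.00045 for rho). The group medians of that sum ran from 16.7 FPKM at day 3 to 46.7 at day 14, and single samples from 8.07 to 82.7. Within time points Phgdh also went with the leukocyte (r = 0.73), fibroblast (0.72), Schwann cell (0.64) and cycling (0.64) marker sums (permutation test, p adjusted over 90 relations 0.00315, 0.0009, 0.00889 and 0.00553). Phgdh was the gene of the 10 that moved with the adipocyte markers most closely, and the part of these cell types in its values was not tested.

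**Figure D2:**
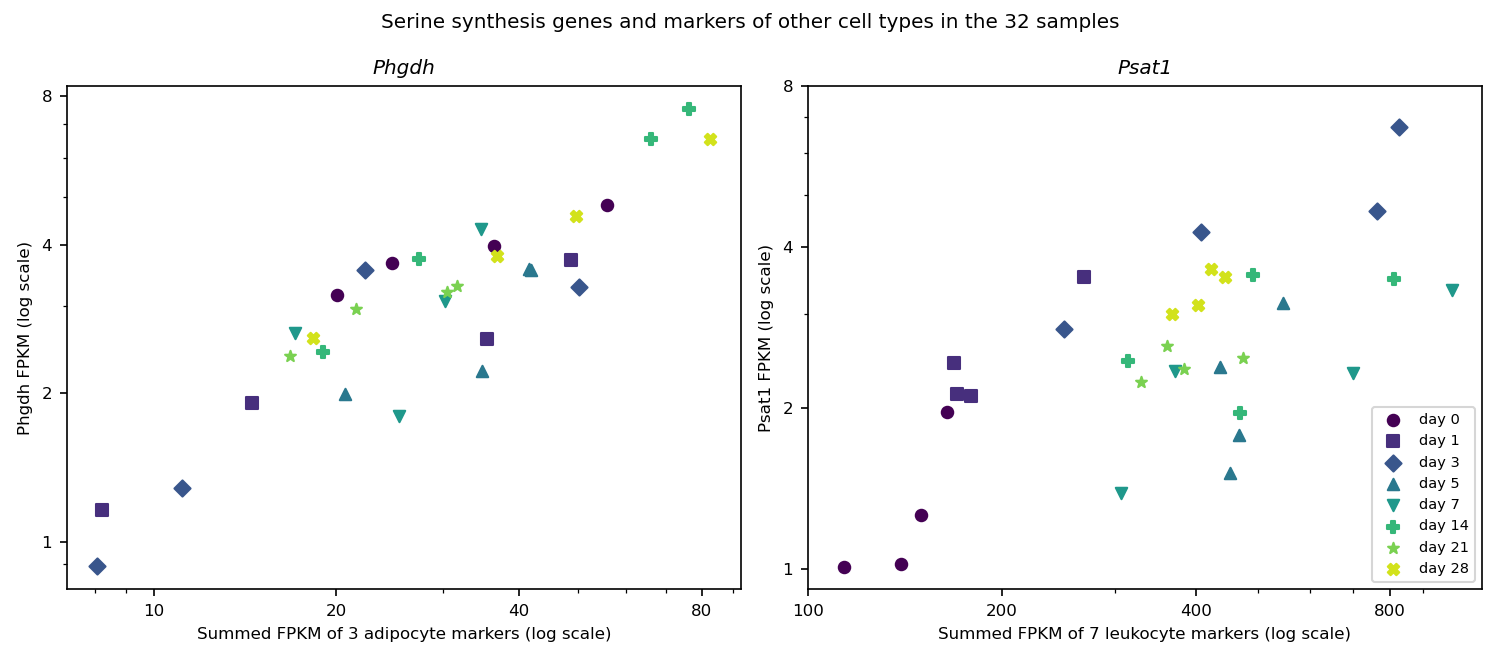
Left, Phgdh FPKM against the summed FPKM of 3 adipocyte markers, and right, Psat1 FPKM against the summed FPKM of 7 leukocyte markers, in the 32 samples (all axes on log scales, each point 1 sample, shape and colour giving the day). Phgdh follows the adipocyte sum within and across days (r = 0.89 pooled), and the 4 day 3 samples of Psat1 line up with the leukocyte sum.

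Mthfd2 (chr6:83305691-83325908, minus strand) lay above day 0 at every later time point. The day 0 samples held 1.73, 1.94, 1.73 and 1.63 FPKM (1.76 ± 0.13). A first peak came early, with 4.04, 3.47, 3.58 and 3.93 FPKM at day 1 and 4.61, 6.45, 4.56 and 5.08 FPKM at day 3. At day 5 the values were 3.03, 2.93, 2.80 and 3.20 FPKM, at day 7 3.23, 2.69, 2.97 and 3.99 FPKM and at day 14 4.25, 4.18, 3.60 and 4.11 FPKM. A second rise followed, to 6.75, 6.85, 7.62 and 9.22 FPKM at day 21 and to 11.7, 14.4, 15.4 and 11.7 FPKM at day 28 (13.3 ± 1.88). All 28 later samples lay above every day 0 sample, and the day 28 samples above all the others.

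The log2 changes of Mthfd2 were 0.79 at day 1, 1.15 at day 3, 1.64 at day 21 and 2.37 (SE 0.10) at day 28, the last with an adjusted p of 3.62e-17 by limma, and these 4 passed under both scalings. Day 14 did too (0.87 as deposited and 0.59 after median-ratio scaling). At day 5 the change of 0.53 did not pass as deposited. It passed with a pseudocount of 0.1, after rescaling to TPM and with voom (0.74, 0.82 and 0.77). That of 0.61 at day 7 passed as deposited, and also with a pseudocount of 0.1 (0.83), after rescaling to TPM and with voom. The day 7 call was lost after median-ratio scaling and quantile normalization (0.35 in both). It was also lost without replicate 4 of day 0 or of day 7 (0.58 and 0.52). Between successive time points Mthfd2 fell by 0.62 on the log2 scale from day 3 to day 5 and rose by 0.77 from day 14 to day 21 and by 0.73 from day 21 to day 28 (limma, adjusted p = 3.07e-05, 3.96e-05 and 0.000216). The fall was 0.53, under the limit, without replicate 2 of day 3.

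Fgf21 (chr7:45613886-45615490, minus strand) encodes an endocrine fibroblast growth factor. At day 0 it was represented by 1 fragment in replicate 1 (0.068 FPKM) and none in the other 3 samples. At day 1 it held 0.889, 1.64, 1.89 and 1.21 FPKM, which came from 84 fragments in all. The rate was 83.0 times that of day 0, with an exact 95% interval for counting error of 14.5 to 3317. The change on the log2(FPKM + 1) scale was 1.23 (SE 0.17, limma, adjusted p = 1.84e-06).

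Fgf21 then stayed lower up to day 14 before a second rise. It held 0.686, 0.503, 0.387 and 0.685 FPKM at day 3, 0.688, 0.129, 0.965 and 0.492 FPKM at day 5, 0.689, 0.602, 0.501 and 0.745 FPKM at day 7 and 0.299, 0.242, 0.679 and 0.570 FPKM at day 14, from 29 to 40 fragments a day. At day 21 it held 1.69, 2.40, 1.20 and 1.44 FPKM and at day 28 2.00, 1.25, 1.91 and 0.600 FPKM, with 106 and 92 fragments. Every sample after day 0 lay above every day 0 sample. The fall of 0.61 on the log2 scale from day 1 to day 3 and the rise of 0.88 from day 14 to day 21 passed (limma, adjusted p = 0.00699 and 0.00487), the first not without replicate 2 or 3 of day 1 or replicate 3 of day 3 (-0.56 to -0.51).

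Against day 0, Fgf21 passed at days 3, 5, 7, 21 and 28 (0.62, 0.60, 0.68, 1.38 and 1.22 on the log2(FPKM + 1) scale) and not at day 14 (0.50, limma, adjusted p = 0.0182). The pseudocount of 1 holds such values down, and with a pseudocount of 0.1 the 7 changes ran from 2.18 at day 14 to 3.92 at day 21 and all passed. The day 3 call did not hold without replicate 1 or 4 of that day (0.58 in both cases), and the day 5 call did not hold without replicate 1 or 3 of that day (0.55 and 0.48) or after median-ratio scaling (0.55).

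Gdf15 (chr8:70629393-70632456, minus strand) encodes a secreted member of the TGF-beta family that signals to the hindbrain. It had 3 fragments over the 4 day 0 samples, at 0.035, 0.036, 0.035 and 0 FPKM. At day 1 it held 0.038, 0.351, 0.268 and 0.360 FPKM and at day 3 0.035, 0.581, 0.265 and 0.064 FPKM. It climbed to 0.515, 0.185, 0.611 and 1.08 FPKM at day 7, 0.553, 0.497, 0.603 and 0.682 FPKM at day 14, 0.620, 0.931, 0.420 and 0.437 FPKM at day 21 and 1.45, 1.38, 0.849 and 0.647 FPKM at day 28. The day 3 group overlapped day 0, and the lowest day 1 sample had 1 fragment, as had 3 of the day 0 samples, so that it lay above them in FPKM through its lower depth alone. At day 28 the 135 fragments gave a rate 40.9 times that of day 0, with an exact 95% counting interval of 13.7 to 200.7.

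The Gdf15 rate was 9.88 times that of day 0 at day 1 (exact 95% counting interval 3.07 to 50.6), from 30 fragments. With the pseudocount of 1 the changes of 0.61, 0.62, 0.63 and 1.00 on the log2(FPKM + 1) scale at days 7, 14, 21 and 28 passed (limma, adjusted p = 0.00105, 0.000829, 0.000855 and 1.85e-06), those of 0.25 to 0.33 at days 1, 3 and 5 did not, and no step between successive time points passed. With a pseudocount of 0.1 all 7 changes of Gdf15 passed, from 1.12 at day 3 to 3.17 at day 28, and with voom those at days 1, 3 and 5 passed as well. The day 7 call was lost without replicate 4 of that day (0.47) and the day 21 call without its replicate 2 (0.54), and median-ratio scaling ended the calls at days 7 and 14 with changes of 0.57 at both. Quantile normalization ended those at days 7, 14 and 21 (0.53, 0.52 and 0.57).

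**Figure D3:**
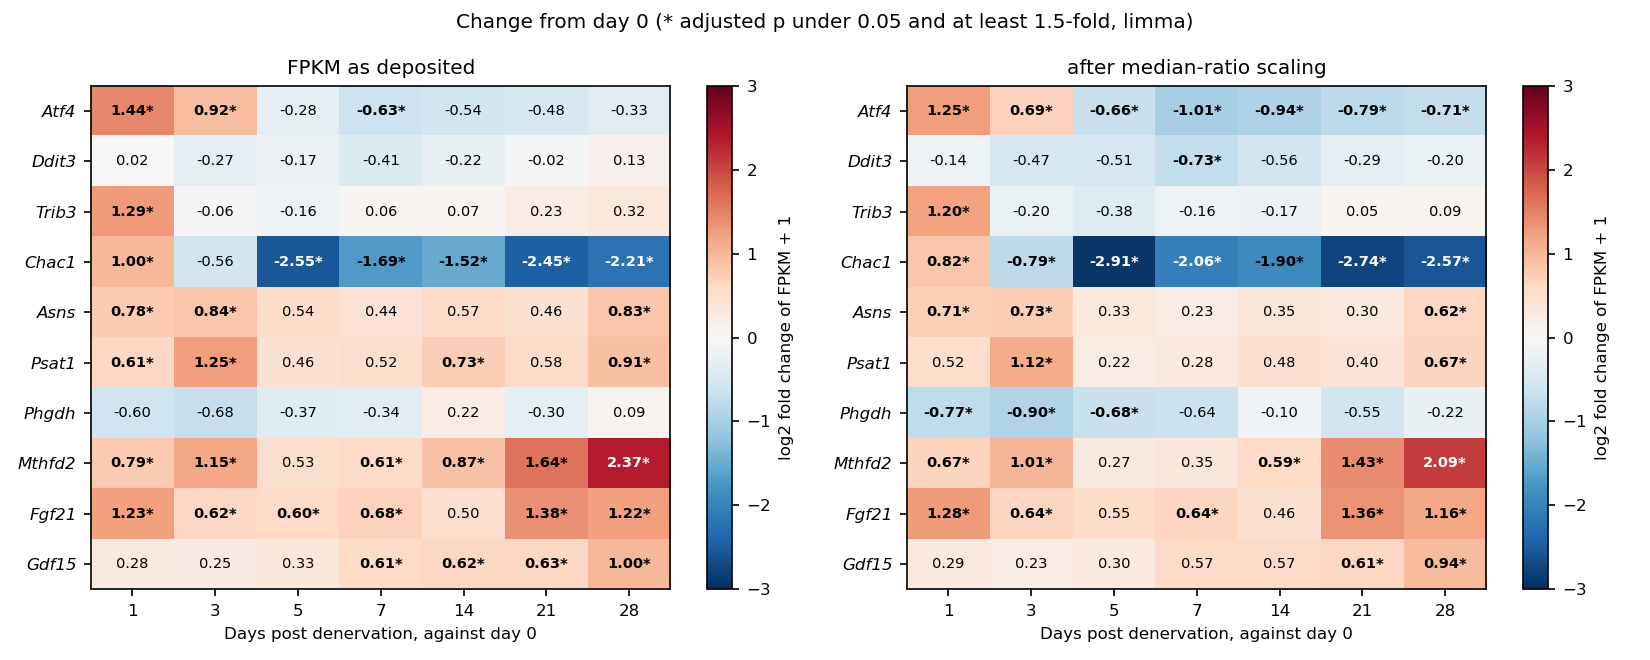
Log2 change of FPKM + 1 from day 0 for the 10 genes (rows) at 7 time points (columns), on the values as deposited (left) and after median-ratio scaling (right); colour runs from -3 to 3 and a star marks an adjusted p under 0.05 with at least a 1.5-fold change. Atf4 is 1.44 higher at day 1 on the left and lower with a star from day 5 to day 28 on the right, and Chac1 is lower with a star from day 5 on in both.

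Counted together, 7 of the 10 genes rose and 0 fell at day 1, where 6.34% of the 22071 genes tested rose and 2.49% fell. At an unadjusted p under 0.05 in limma 1 was lower, Phgdh, and voom on the recovered fragments called 0 lower. At day 3, 5 rose and 0 fell (all genes 13.2% and 6.03%), and 4 rose without replicate 1 of that day. At an unadjusted p under 0.05 in limma 3 were lower at day 3, Ddit3, Chac1 and Phgdh, and voom called 1. At day 5, 1 rose and 1 fell (14.9% and 3.86%), at day 7, 3 and 2 (15.4% and 4.1%), and at day 14, 3 and 1 (14.6% and 3.83%). With a pseudocount of 0.1 and after rescaling to TPM, 5 rose at each of days 5, 7 and 14.

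At day 21, 3 rose and 1 fell (11.8% and 3.93%), and at day 28, 5 rose and 1 fell (14.2% and 4.1%). After median-ratio scaling 6 members were higher and 1 lower at day 1 (all genes 4.14% and 4.68% under that scaling), 5 and 2 at day 3 (9.02% and 9.17%), 0 and 3 at day 5 (6.71% and 7.69%) and 1 and 3 at day 7 (7.15% and 7.93%). The counts under that scaling were 1 and 2 at day 14 (6.57% and 7.55%), 3 and 2 at day 21 (6.44% and 7.16%) and 5 and 2 at day 28 (6.58% and 8.12%). The median change of the 10 genes was 0.78 on the log2 scale at day 1, 0.09 at day 5 and 0.57 at day 28, against 0.03, 0.13 and 0.14 over all genes tested. The 7 comparisons share the same 4 day 0 samples. All 10 genes passed the filter on low values, Fgf21 and Gdf15 through denervated samples alone.

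The groups were also compared by whether their ranges overlapped day 0. Above day 0 lay 8 of the 10 genes at day 1 (all genes 19.9%), Gdf15 among them although it tied day 0 in fragments in 1 sample, 5 at day 3 (23%), 4 at day 5 (35.9%), 3 at day 14 (36.8%) and 5 at day 28 (36.6%). Day 7 had 3 (32.4%) and day 21 had 5 (32.9%). Below day 0 lay 0 at days 1 and 3 (8.6% and 12.3%) and Atf4 and Chac1 at each later time point (8.93%, 8.47%, 8.13%, 9.99% and 9.06%).

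Between successive time points members passed at 5 of the 6 steps. From day 1 to day 3, Psat1 rose and Trib3, Chac1 and Fgf21 fell (all genes 6.63% higher and 3.93% lower). From day 3 to day 5, Atf4, Chac1, Psat1 and Mthfd2 fell (2.05% lower, and 3.72% higher). From day 5 to day 7 Chac1 rose (0.449%, and 0.208% lower), and from day 7 to day 14 none of the 10 passed (0.376% higher and 0.258% lower), although Mthfd2 was higher at an unadjusted p of 0.0151. From day 14 to day 21, Mthfd2 and Fgf21 rose and Chac1 fell (0.0906% higher and 0.362% lower), and from day 21 to day 28 Mthfd2 rose (0.159%, and 0.0408% lower). Over the whole course 8 of the 10 passed the limma F test with a largest change of at least 1.5-fold (31.9% of all genes). Ddit3 passed the F test itself (limma, adjusted p = 0.000624) but not the fold limit (-0.41), and Phgdh did not pass the F test (limma, adjusted p = 0.065). Both passed after median-ratio scaling (27.8% of all genes), and Phgdh also with a filter at 1 FPKM (limma, adjusted p = 0.0481) and when replicate 4 of day 1, 2 or 3 of day 3, 1 of day 14 or 1 of day 28 was left out (limma, adjusted p 0.0172 to 0.0384).

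With days 14, 21 and 28 joined against day 0, Asns, Psat1, Mthfd2, Fgf21 and Gdf15 were higher and Chac1 lower (14.5% and 4.26% of 20243 genes), and after median-ratio scaling Asns (0.42) and Psat1 (0.52) no longer passed while Atf4 passed as lower (-0.81; all genes 6.98% higher and 8.13% lower under that scaling). The joint rise of Asns was 0.62 on the log2 scale, and it did not pass without replicate 2 or 4 of day 0 (0.56 and 0.55).

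The 4 eIF2alpha kinases, 2 phosphatase subunits and Eif2s1, which encodes eIF2alpha itself, formed a list of 7 genes, of which 2 rose at day 1 and 3 at day 3 under both scalings (of all genes, 6.34% at day 1 and 13.2% at day 3 with deposited values, 4.14% and 9.02% once scaled). From day 5 on 1 to 3 were higher as deposited (all genes 11.8% to 15.4%) and 0 after median-ratio scaling (6.44% to 7.15%). Ppp1r15a, or GADD34, the inducible subunit that directs dephosphorylation of eIF2alpha, went from 9.63 ± 0.61 FPKM at day 0 to 63.9 ± 1.71 at day 1 and 51.9 ± 13.6 at day 3, then to 16.6 ± 1.48 at day 5. Its log2 change at day 1 was 2.61 (SE 0.12, limma, adjusted p = 1.94e-15), larger than that of Atf4 at the same time point. Ppp1r15b, its constitutive counterpart, went from 6.11 to 15.4 FPKM at day 3 (1.21), and Eif2s1 from 11.7 to 24.2 FPKM (0.99). Eif2ak2, the kinase PKR, passed at day 7 as deposited (0.62) and not after median-ratio scaling (0.35).

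Among 14 partners of Atf4, feedback genes and stress factors, 7 rose at day 1, and 5 or 6 at each later time point, on the values as deposited (all genes 6.34% and 11.8% to 15.4%). After median-ratio scaling 6 were higher at day 1 and 2 to 5 later (all genes 4.14% and 6.44% to 9.02%), and 1 to 3 were lower from day 3 on (7.16% to 9.17%). Eif4ebp1, which restrains cap-dependent translation, went from 20.1 ± 1.11 FPKM to 222.7 ± 41.65 at day 3 (log2 change 3.39). Ddit4, or REDD1, an inhibitor of mTORC1, went from 7.02 to 64.4 FPKM at day 1 (2.90, with day 1 samples from 36.9 to 100.1 FPKM). Atf3, a leucine zipper factor downstream of Atf4, went from 2.14 to 21.7 FPKM at day 1 (2.82) and was still at 18.9 ± 1.53 at day 28. Cebpb, a partner of Atf4 on composite elements, went from 9.06 to 40.2 FPKM at day 1 (1.94).

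Of 12 enzymes of serine, glycine, folate and proline metabolism outside the 10 genes, 3 rose and 0 fell at day 1 (all genes 6.34% and 2.49%), and 2 rose and 1 fell at day 3 and again at day 28 as deposited (all genes 13.2% and 6.03%, and 14.2% and 4.1%). From day 5 to day 21, 0 to 2 rose and 1 fell (all genes 11.8% to 15.4% and 3.83% to 4.1%). After median-ratio scaling 1 rose at day 1 (all genes 4.14%) and 0 at every later time point (6.44% to 9.02%), when 1 to 3 fell (7.16% to 9.17%). Aldh18a1, an enzyme of proline synthesis, rose at day 1 by 0.81 on the log2 scale as deposited and by 0.70 after median-ratio scaling, and Shmt1, which moves a carbon unit between serine and glycine, by 0.67 as deposited only (0.56). Got1, the cytosolic aspartate aminotransferase, fell from 170.1 ± 16.8 FPKM at day 0 to 58.7 ± 4.79 at day 7 (-1.52). It was lower at each time point from day 5 on under both scalings.

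Of 10 amino acid transporters, 4 rose at day 1, 5 at each of days 3, 5 and 7 and 2 to 4 later (all genes 6.34% at day 1 and 11.8% to 15.4% later). After median-ratio scaling 4 were higher at days 1, 5 and 7, 5 were higher and 1 lower at day 3, and 2 were higher at each of days 14, 21 and 28 (all genes higher 4.14% at day 1 and 6.44% to 9.02% later, and lower 9.17% at day 3). Slc38a2, the adaptive transporter for small neutral amino acids, went from 16.9 to 61.0 FPKM at day 3 (1.81). Slc7a5, the light chain of the LAT1 exchanger, went from 1.14 ± 0.15 FPKM to 7.60 ± 1.44 at day 3 and 8.85 ± 1.40 at day 28 (2.19), and its heavy chain Slc3a2 from 9.07 to 24.3 FPKM at day 3 (1.34). Slc6a9, a glycine transporter, went from 0.71 to 3.15 FPKM at day 5 (1.28).

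The 20 cytosolic aminoacyl-tRNA synthetases, which charge tRNAs and many of which Atf4 induces, had their largest count at day 3, when 15 rose with a median log2 change of 0.88 against 0.06 over all genes, of which 13.2% rose. The counts higher were 9 at day 1 and 10 or 11 from day 5 on (all genes 6.34% and 11.8% to 15.4%). After median-ratio scaling they were 6 at day 1, 12 at day 3, 5 at days 5 and 7 and 3 or 4 later (all genes 4.14%, 9.02% and 6.44% to 7.15%), with 1 lower from day 7 on (7.16% to 8.12%). The named leaders were Dars (26.2 to 98.2 FPKM at day 7, 1.87), Vars (6.10 to 24.7 at day 5, 1.86), Lars (10.6 to 34.9 at day 3, 1.63) and Gars (20.2 to 60.9 at day 7, 1.55). Mars, the neighbour of Ddit3, is part of this list, and Cars is in this list and in that of the partners.

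Chaperones and factors of the endoplasmic reticulum answer mainly to Atf6 and Xbp1, the other arms of the unfolded protein response. Of 12 such genes 7 rose at day 1, 10 at days 3 and 5 and 9 or 10 later (all genes 6.34% at day 1 and 11.8% to 15.4% later). After median-ratio scaling the counts were 4 at day 1, 10 at day 3, 5 at day 5 and 2 to 5 from day 7 on (all genes 4.14%, 9.02% and 6.44% to 7.15%). Hspa5, the chaperone BiP, went from 48.9 ± 2.48 FPKM at day 0 to 173.8 ± 8.49 at day 3 (1.81) and 106.2 ± 5.05 at day 28, and Xbp1 from 19.7 to 72.1 FPKM at day 3 (1.83). Hsp90b1 rose by 1.29 at day 3 and Sdf2l1 by 1.65 at day 28.

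The receptors of the secreted members were mostly low or flat. Fgfr1 lay between 10.3 and 12.6 FPKM in its group means, and Klb, the co-receptor of Fgf21, at most at 0.17. Gfral, the receptor of Gdf15, was listed at 0 in 7 of the 8 groups and was not tested. Ret, the kinase that pairs with Gfral, fell from 2.62 ± 0.22 FPKM at day 0 to 0.90 ± 0.21 at day 21 (-0.94) and was lower at each time point from day 3 on under both scalings. It is also expressed in nerve, and the Schwann cell markers, 5 of 5 in the table, summed to 76.3 to 169 FPKM at day 0 and to 6.48 to 35.8 FPKM from day 3 on. Their part in the Ret values was not tested.

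**Figure D4:**
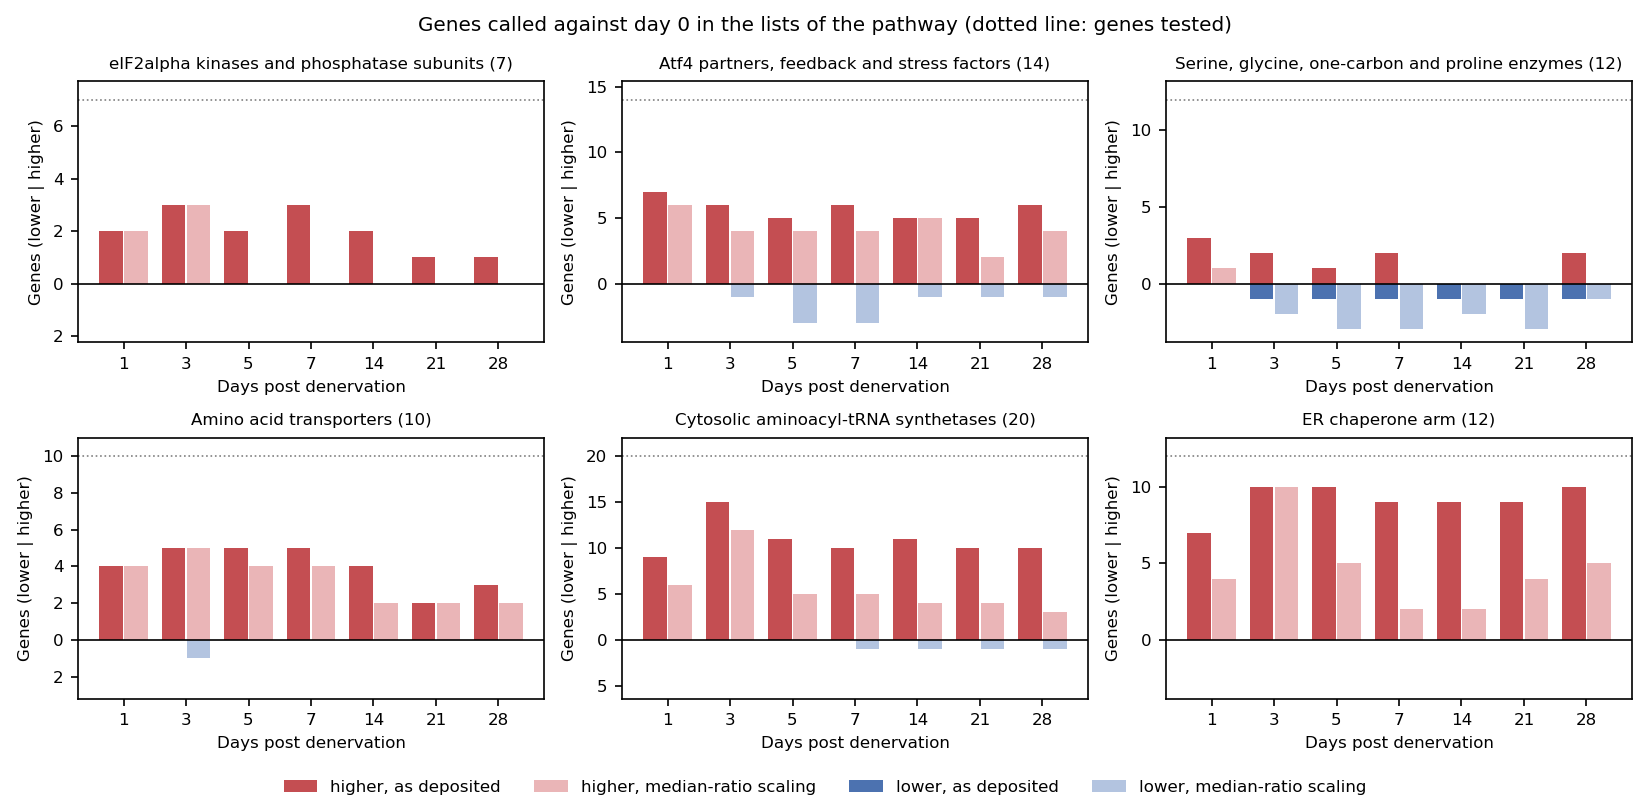
Number of genes called against day 0 (y axis, higher above and lower below the zero line) in 6 lists of the pathway at each time point (x axis, days post denervation, evenly spaced); dark bars are values as deposited, pale bars values after median-ratio scaling, and the dotted line is the number tested. The aminoacyl-tRNA synthetases reach 15 of 20 at day 3 as deposited and 12 after scaling, and the later counts of that list and of the chaperones are lower in the pale bars.

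Likeness of time courses was measured by Pearson's r over the 8 group means of log2(FPKM + 1), which share the samples and their depth, among 11943 genes with a mean of at least 1 FPKM. The genes most like each member were Irs2 for Atf4 (0.985, after Gm45221 with 0.988), Ptgis for Ddit3 (0.948), Mia2 for Trib3 (0.986), Gm17201 for Chac1 (0.986), Gnai3 for Asns (0.982), Nt5dc1 for Psat1 (0.976), Aff3 for Phgdh (0.974), Fam45a for Mthfd2 (0.972), Dnajc3 for Fgf21 (0.958) and Zfp664 for Gdf15 (0.985). Acaca, an enzyme of fat synthesis, was next for Phgdh at 0.973, and Dnajc3, the gene most like Fgf21, is a member of the chaperone list. None of the closest genes was another of the 10, of which Fgf21 and Gdf15 had a mean under 1 FPKM and could not be named. Among the 10 themselves r was highest between Asns and Psat1 (0.885), Atf4 and Chac1 (0.819) and Mthfd2 and Gdf15 (0.814), and was -0.12 between Atf4 and Mthfd2 and -0.67 between Atf4 and Phgdh.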

How the data were processed

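RNA-seq of 32 GAS samples, 4 at each of 8 time points, was analysed. The authors deposited FPKM values. The submitters' processing notes name CASAVA, HISAT2 2.1.0, DESeq2 and GRCm38. The counter and its strand setting are not given in the sources used here. FPKM times merged exon length (GENCODE mouse release 21; 33356 genes matched, 41 not) gave fragments, of which 99.3% under 200 were whole within 0.02. Depth was 14199898 to 17561590 fragments. Intervals cover counting error only.

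All samples entered 1 limma 3.58.1 fit (R 4.3.3, variance trend) of log2(FPKM + 1), a scale that understates changes of low genes, with genes at 0.1 FPKM or more in at least 4 samples. Calls needed a Benjamini-Hochberg adjusted p under 0.05 over all genes and a 1.5-fold change. On simulated data for day 3 against day 0, 188 of 200 genes changed 2-fold were recovered, with 1 false call among 21489 genes. The changed genes were drawn from better expressed genes only. Trib3, Asns, Psat1, Phgdh, Fgf21 and Gdf15 lay below the mean level required, so this recovery does not cover them. Single values were compared by exact permutation. Other steps used scipy 1.17.1, numpy 2.4.6, pandas 2.3.3 and, for plots, matplotlib 3.10.9 under Python 3.11.15. Promoters came from RefSeq.

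The 10 genes, the lists and the tests were chosen with earlier results of these data known. From each list up to 4 genes with the largest called change were named, with others, among them the receptors, chosen after their values were seen. The result of 1 further gene that this rule would name is left out. Alternatives covered pseudocount, filters, TPM, 2 scalings, the trend, voom on the recovered fragments, the samples fitted, the fold limit and each sample left out.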

Additional observations from a re-analysis of the deposited data

Results flagged for a closer look

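In 2 of the 80 groups of 4 samples formed by the 10 genes and 8 time points, 1 sample was set apart from the other 3 by a gap over Dixon's 95% critical value, which chance gives in about 1 in 20 groups. Fgf21 at day 0 was 0.06824 FPKM in replicate 1, which was 1 fragment, and 0 in the others. Gdf15 at day 0 was 0.0 FPKM in replicate 4 and 0.035 to 0.0362 FPKM in the others, which had 1 fragment each.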

How the results depend on the processing

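Of 1313 values of single genes recomputed under an alternative, 1231 kept their side of the threshold, 22 lost a call, 60 gained one and 0 reversed. Of 1520 values without 1 sample, 1465 kept theirs, 30 lost a call, 25 gained one and 0 reversed. No filter and no variance trend moved no call. No paired analysis was possible because the columns carry no replicate number of the labels.
Counts of the 10 genes that moved by more than 1.5 times were these. Median-ratio scaling gave 1 lower at day 1 and 2 lower at day 3 instead of 0, 0 higher and 3 lower at day 5 instead of 1 and 1, 1 higher at days 7 and 14 instead of 3, 2 lower instead of 1 at days 14, 21 and 28, and 3 higher and 2 lower for days 14 to 28 together instead of 5 and 1. Quantile normalization gave 1 lower at day 1, 2 lower at day 3, 0 higher and 2 lower at day 5, 1 higher at days 7 and 14, 2 lower at days 14 and 21, and 3 higher and 2 lower for days 14 to 28 together. Among smaller moves, both scalings gave 6 higher instead of 7 at day 1, 3 lower instead of 2 at day 7 and 10 instead of 8 over the whole course, and quantile normalization gave 2 higher instead of 3 at day 21 and 4 lower instead of 3 from day 1 to day 3. A pseudocount of 0.1 gave 1 lower at day 3 and 5 higher at days 5, 7, 14 and 21. TPM gave the same 4 counts of 5, and 1 lower at day 7 instead of 2. Voom gave 1 lower at day 3, 4 higher at day 5, 5 higher at days 7, 14 and 21, 0 higher from day 5 to day 7 and 0 lower from day 14 to day 21. A filter at 1 FPKM gave 1 lower at day 3. Fitting only the groups compared gave 0 higher from day 1 to day 3 and 0 from day 5 to day 7. Without the fold limit 2 were lower at days 3, 5, 14, 21 and 28 and in days 14 to 28 together, 3 higher at day 5, 5 higher at days 7, 14 and 21, 2 higher and 5 lower from day 1 to day 3, and 1 lower from day 5 to day 7.
Leaving out 1 sample in turn gave 0 to 2 lower at day 3, 0 to 3 higher at day 5, 1 to 4 higher and 1 to 2 lower at day 7, 2 to 4 higher at day 21, 0 to 1 higher and 2 to 4 lower from day 1 to day 3, 3 to 4 lower from day 3 to day 5, 0 to 1 higher from day 5 to day 7, and 0 to 1 lower from day 14 to day 21. Where a count moved with a scaling or another test, the cause was not tested. Depth limits Fgf21 and Gdf15, with 1 and 3 fragments at day 0, most.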
